A study of Homo sapiens with 12 samples.

Results

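Prothymosin alpha (PTMA), its relative parathymosin (PTMS), 6 high-mobility-group proteins and 2 replacement histones were followed in polysome-bound RNA of HEK293 cells, a line derived from human embryonic kidney. The 10 genes are PTMA, PTMS, HMGA1, HMGB1, HMGB2, HMGN1, HMGN2, HMGN3, H2AFZ and H3F3B, out of 23284 symbols listed for the first experiment and 12421 for the knockout experiment. They were chosen by name as short nuclear proteins with high measured levels across the groups, so their levels are given as a description with no test. All 10 are listed in both tables and all 10 passed the filter on low values.

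The 12 libraries form 6 groups of 2. In the first experiment, HEK293 cells with no genotype label received a STING plasmid or an empty vector. In the knockout experiment, PERK knockout cells received STING or vector, and wild-type cells received STING or vector. Every group was transfected with 5 ug of plasmid and lysed after 24 h, and cycloheximide was given before lysis in all groups to hold ribosomes on their mRNAs. The labels do not say which promoter drives STING, whether the knockout line is a single clone, or whether replicates came from separate cultures. The p-values therefore reflect only how far these libraries scatter, which may be technical. STING is the adaptor of cytosolic DNA sensing, and PERK (EIF2AK3) is a kinase of the endoplasmic reticulum that slows translation by phosphorylating eIF2alpha. The comparisons ask how the polysome fraction changes with STING, and whether PERK is needed for it.

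These proteins act in chromatin in different ways. HMGB proteins bend DNA through HMG boxes, HMGA1 binds the minor groove of AT-rich DNA through AT hooks, and HMGN proteins bind the nucleosome and counter the compaction brought by linker histone H1. Prothymosin alpha is a highly acidic disordered protein that binds histone H1, and the replacement histones H2A.Z and H3.3 are placed into chromatin outside DNA replication. Their mRNAs are polyadenylated, unlike those of most replication-dependent histones, and can be captured by an oligo-dT primer.

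TMEM173, the older symbol of STING, stood at 65157 and 69253 FPKM (fragments scaled to transcript length and sequencing depth) with STING in the first experiment, against 14.9 and 13.8 FPKM with vector. It stood at 10512 and 7338 FPKM with STING in knockout cells, against 23.5 and 43.8 FPKM with vector. In wild-type cells it stood at 41812 and 40660 FPKM with STING, against 23.1 and 36.7 FPKM with vector. EIF2AK3 stood at the floor of 1 in 7 of the 8 libraries of the knockout experiment and at 1.15 in knockout STING library 2, so it cannot check the knockout label. The 6 markers fixed for the HEK293 line summed to 50.0 to 82.6 FPKM in the first experiment and 99.0 to 346 in the knockout experiment, of which VIM made up 44.9 to 75.1 and 86.9 to 319. PAX2 and LHX1 stayed at or below 0.195 FPKM in the first and 1.47 in the second. Of the neuronal markers, NEFL ranged over 2.0 to 2.37 and 4.50 to 16.9 FPKM and INA over 1.51 to 5.07 and 2.68 to 7.39, while NEFM was at 0 in each library of the first experiment and at 1.00 to 3.24 in the knockout experiment. The 6 fibroblast markers summed to at most 0.45 FPKM in the first experiment, where PTPRC, CD3E, HBB and SPI1 of the haematopoietic list were at 0 in all libraries. The amount of an mRNA and its loading with ribosomes cannot be told apart here, nor can fewer cells and less RNA per cell.

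PTMA had the highest level of the 10 genes in the knockout experiment, and HMGN2 and H2AFZ had the highest in the first. PTMA ranged from 672 to 707 FPKM in the first experiment, where it ranked 234th to 315th within a library. In the knockout experiment it ranged from 1590 to 4440 FPKM and ranked 39th to 112th. The tables were normalized separately, so these levels share no scale. HMGN2, a nucleosome-binding protein, ranged from 980 to 1950 FPKM in the first experiment and from 731 to 2050 FPKM in the knockout experiment. H2AFZ, which encodes H2A.Z, ranged from 1240 to 1650 FPKM and from 641 to 1500 FPKM. PTMS did not stand at a high level throughout: it ranged from 23.0 to 25.1 FPKM in the first experiment, where its best rank was 2332nd, and from 83.0 to 215 FPKM in the knockout experiment.

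Among wild-type vector libraries of the knockout experiment the FPKM order was PTMA (mean 4416), HMGN2 (1806), H2AFZ (1309), HMGN1 (479), HMGA1 (414), HMGB1 (284), HMGN3 (246), HMGB2 (227), H3F3B (199) and PTMS (121). HMGN3 did not separate from HMGB1 or HMGB2 beyond the spread of the libraries, and the other neighbours did not overlap. In vector libraries of the first experiment the order was HMGN2 (1765), H2AFZ (1565), PTMA (690), HMGN1 (187), HMGA1 (140), HMGN3 (125), HMGB1 (121), H3F3B (98.7), HMGB2 (60.6) and PTMS (24.1). There HMGN2 overlapped H2AFZ, and HMGN3 overlapped both HMGA1 and HMGB1.

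**Figure D1:**
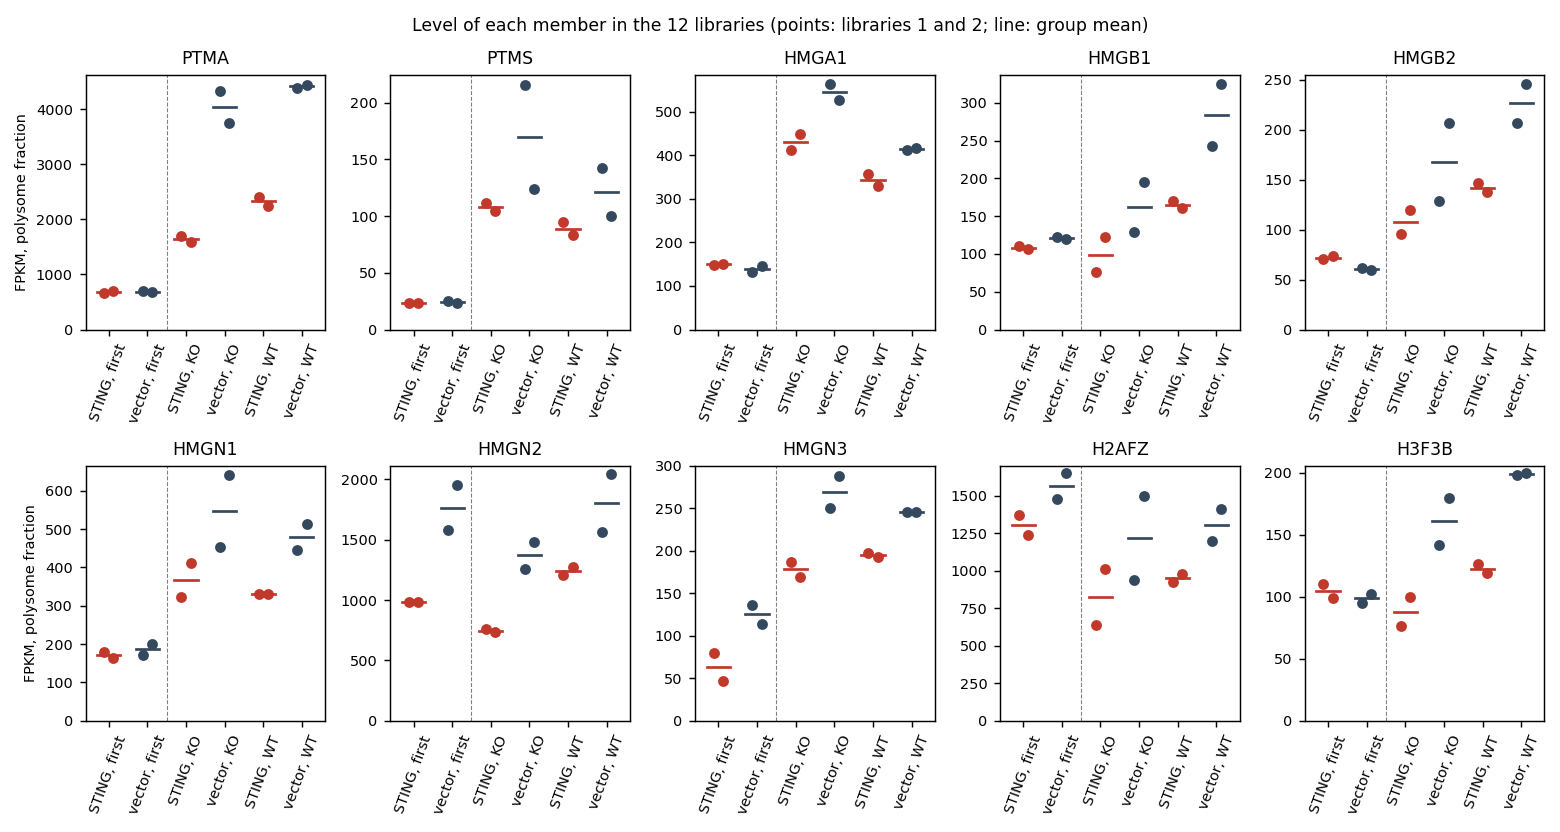
FPKM of each gene (y axis, linear, from 0) in the 12 libraries, with 1 point per library and a line at the mean of the 2 libraries, red with STING and dark with vector; the dashed line parts the first experiment from the separately normalized knockout experiment. PTMA stood at 1696 and 1589 FPKM with STING in knockout cells, against 4339 and 3751 with vector, whereas all 4 of its libraries in the first experiment lay between 672 and 707.

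The proteins are short. Their longest annotated coding sequences run from 90 residues (HMGN2) to 215 residues (HMGB1), and their median coding length is 387 nucleotides, against 1305 over 19517 protein-coding genes. Processed pseudogene copies bear on the counting: the annotation names 48 pseudogenes of HMGB1, 36 of HMGN2, 31 of HMGN1, 7 each of PTMA and HMGA1, 6 of H2AFZ, 2 of H3F3B and 1 each of HMGB2 and HMGN3, with none of PTMS. Of these 139 only HMGA1P7, at 0, and HMGN2P46, at up to 0.685 FPKM, are listed, both in the first table. How reads shared with such copies were counted is not given in the sources used here, so the levels of HMGB1, HMGN1 and HMGN2 are uncertain to that extent.

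The 10 genes had lower values with STING in the knockout experiment on the deposited scale. So did most genes, with 66.2% of all genes under 0 in knockout and 81.6% in wild-type cells. With that limit, the 250 bases before the starts of the 10 genes were searched for 5 promoter motifs on both strands. RefSeq windows (GRCh38.p14) matched 8 genes, with H2AFZ under H2AZ1 and H3F3B under H3-3B. The windows of PTMS and HMGB2 were not used here. CCAAT (which reads ATTGG on the other strand), the motif of the factor NF-Y, was present in 7 of the 8 windows, all but HMGA1, against 33.0% of 27305 windows of that length. It was present at least 2 times in 6 of the 8, against 9.92% of all windows. GGGCGG (which reads CCGCCC on the other strand) was present in 5 of 8 against 42.3%, TATAAA (on the other strand, TTTATA) in 2 of 8 against 11.1%, CACGTG in 1 of 8 against 6.49%, and TGACGTCA in 0 of 8 against 1.77%. In HMGN2 the matches to CCGCCC and CACGTG overlap. A match of letters is a description and not a measured site. The 27305 windows were not limited to the genes tested here, and joint regulation of the 10 genes was not tested. The windows of PTMA (chr2:231708275-231708524, plus strand), HMGB1 (chr13:30465937-30466186, minus strand) and H3F3B (chr17:75779780-75780029, minus strand) are shown 5′ to 3′ because they hold CCAAT repeatedly, in capitals, in genes of 3 different families:
PTMA: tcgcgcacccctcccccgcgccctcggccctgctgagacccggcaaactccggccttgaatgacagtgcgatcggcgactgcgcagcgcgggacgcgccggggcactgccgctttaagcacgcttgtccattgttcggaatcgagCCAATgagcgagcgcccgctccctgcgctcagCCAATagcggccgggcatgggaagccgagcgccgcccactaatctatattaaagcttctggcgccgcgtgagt
HMGB1: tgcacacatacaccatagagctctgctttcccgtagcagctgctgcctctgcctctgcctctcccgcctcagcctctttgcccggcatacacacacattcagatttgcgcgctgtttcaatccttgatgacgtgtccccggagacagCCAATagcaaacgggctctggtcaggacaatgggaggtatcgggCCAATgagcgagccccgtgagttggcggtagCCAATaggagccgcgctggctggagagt
H3F3B: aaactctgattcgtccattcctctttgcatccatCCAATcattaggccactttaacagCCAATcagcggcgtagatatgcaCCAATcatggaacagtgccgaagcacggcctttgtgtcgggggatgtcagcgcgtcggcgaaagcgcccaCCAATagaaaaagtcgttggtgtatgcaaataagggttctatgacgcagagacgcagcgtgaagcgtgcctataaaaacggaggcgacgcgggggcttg
Counted back from the start, with -1 as the base before it, the first base of CCAAT lies at -105 and -73 in PTMA and at -103, -59 and -28 in HMGB1. In H3F3B it lies at -216, -192, -169 and -99.

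With STING in the first experiment, HMGN2 fell, and it was the only gene of the 10 to pass the test. HMGN2 stood at 980 and 988 FPKM with STING, against 1577 and 1952 FPKM with vector. Both STING libraries lay under both vector libraries, for a log2 difference of -0.83 (SE 0.12, limma adjusted p = 0.00569), a ratio of 0.561 on the FPKM + 1 scale. HMGN3, of the same nucleosome-binding family, stood at 80.3 and 46.9 FPKM with STING, against 136 and 114 FPKM with vector. The HMGN3 groups did not overlap, but the STING libraries lay far apart and the log2 difference of -1.01 (SE 0.27) missed the threshold (limma adjusted p = 0.0745), which it passed with a replicate block (0.00162). HMGN1, the third member of the family, stood at 180 and 163 FPKM with STING, against 172 and 201 FPKM with vector, and overlapped. The HMGN2 call was lost without STING library 1 or library 2 (limma adjusted p = 0.178 and 0.159), with quantile normalization (log2 difference -0.41, adjusted p = 0.0985) and without the intensity trend and robust estimation (adjusted p = 0.106).

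PTMA groups overlapped in that experiment, with 672 and 707 FPKM with STING, against 698 and 682 FPKM with vector. Its ratio was 0.998, and the 95% interval of the log2 difference ran from -0.23 to 0.22. The STING libraries bracketed the vector libraries. With quantile normalization the PTMA difference was 0.42 and passed (limma adjusted p = 0.042), so whether a difference is seen depends on the scaling. H2AFZ stood at 1373 and 1239 FPKM with STING, against 1481 and 1650 FPKM with vector (log2 difference -0.26, SE 0.11, limma adjusted p = 0.162).

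HMGB2, a DNA-bending protein of dividing cells, stood at 70.4 and 73.7 FPKM with STING, against 62.0 and 59.2 FPKM with vector. HMGA1 stood at 148 and 151 FPKM with STING, against 133 and 147 FPKM with vector. Both genes had STING libraries above the vector libraries, with log2 differences of 0.25 (SE 0.13) and 0.10 (SE 0.12) that did not pass (limma adjusted p = 0.27 and 0.617). HMGB1, which also acts as an alarm signal once released from cells, stood at 110 and 106 FPKM with STING, against 122 and 119 FPKM with vector (log2 difference -0.16). H3F3B, a gene for H3.3, stood at 110 and 99.2 FPKM with STING, against 94.8 and 103 FPKM with vector, and PTMS at 23.7 and 23.2, against 25.1 and 23.0. Both overlapped.

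In the first experiment 1 of the 10 genes was called lower and 0 higher. Of 9464 genes tested, 11.8% were called in either direction, 9.29% lower and 2.51% higher, and of the genes averaging 100 FPKM or more 37.4% were called lower. At an unadjusted p under 0.05, 3 of the 10 were lower, against 18.9% of all genes and 55.3% of those with at least 100 FPKM. Libraries did not overlap with STING lower for 4 genes and with STING higher for 2, against 32.8% and 24.2% of all genes and 67.2% and 11.6% of those with at least 100 FPKM. The log2 difference was under 0 for 7 of the 10, against 54% of all genes and 78.9% of those with at least 100 FPKM. By each of these counts of lower values the share of the 10 was under that of genes with at least 100 FPKM. That band does not match the level of all 10. In this experiment PTMS and HMGB2 reached at most 25.1 and 73.7 FPKM, and the HMGN3 median was 97.3. With median-of-ratios scaling 5 of the 10 were under 0, and with quantile normalization 2 of the 10. The median over the 10 genes was -0.08, against -0.05 over all genes and -0.35 over the 1025 genes with at least 100 FPKM.

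In the knockout experiment all 10 genes had lower mean values with STING in both genotypes on the deposited scale, and PTMA had the lowest difference of the 10. None passed the test, although with a replicate block PTMA passed in knockout cells (limma adjusted p = 0.00852), where the labels do not say that replicate numbers pair libraries. PTMA stood at 1696 and 1589 FPKM with STING in knockout cells, against 4339 and 3751 FPKM with vector (1643 ± 75.6 and 4045 ± 416, SD, n = 2 each). The groups lay far apart, for a log2 difference of -1.30 (SE 0.17), a ratio of 0.407. Only 10 of 12254 genes had a lower difference, and the unadjusted limma p of 6.48e-05 gave an adjusted p of 0.132 over all genes. In wild-type cells PTMA stood at 2403 and 2249 FPKM with STING, against 4389 and 4443 FPKM with vector. Here too the groups lay apart, for a log2 difference of -0.93 (SE 0.17, limma adjusted p = 0.384), with 104 genes lower. With median-of-ratios scaling the PTMA differences were -1.11 in knockout and -0.54 in wild-type cells; the second moved by over 1.5 times.

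**Figure D2:**
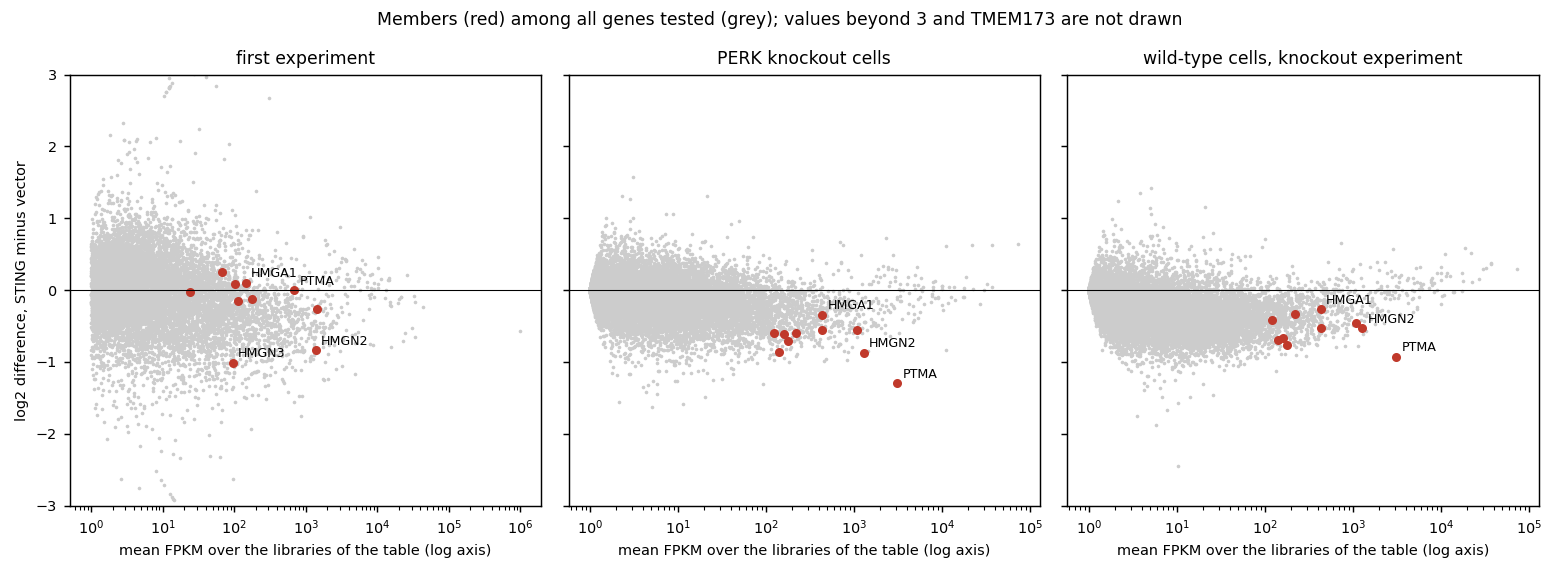
Log2 difference, STING minus vector (y axis), against mean FPKM over the libraries of the table (x axis, log), with all genes tested in grey and the 10 genes in red, in the first experiment, PERK knockout cells and wild-type cells. PTMA lies at the lower right in knockout cells at -1.30 and in wild-type cells at -0.93, and on the zero line in the first experiment.

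The HMGN family stood lower with STING in both genotypes on the deposited scale. But with median-of-ratios scaling the wild-type differences shrank to -0.14 for HMGN1 and -0.14 for HMGN2, and that of HMGN3 turned to 0.06. The knockout differences shrank with quantile normalization, to -0.28 for HMGN1, -0.58 for HMGN2 and -0.33 for HMGN3. HMGN2 stood at 759 and 731 FPKM with STING in knockout cells, against 1259 and 1479 FPKM with vector (log2 difference -0.87, SE 0.19, limma adjusted p = 0.434). In wild-type cells it stood at 1205 and 1274 FPKM with STING, against 1567 and 2046 FPKM with vector (-0.53, SE 0.19). Neither pair of groups overlapped. HMGN3 stood at 187 and 169 FPKM with STING in knockout cells, against 251 and 288 FPKM with vector (-0.59), and at 198 and 193 in wild-type cells with STING, against 246 and 245 with vector (-0.33). HMGN1 stood at 324 and 412 FPKM with STING in knockout cells, against 453 and 641 FPKM with vector (-0.56), and at 331 and 330 in wild-type cells with STING, against 446 and 512 with vector (-0.53). Each of these groups lay apart from its vector group, and no limma adjusted p of the family was under 0.384. Without single libraries the HMGN1 difference in knockout cells ran from -0.81 to -0.31 and the HMGN2 difference in wild-type cells from -0.72 to -0.34.

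The HMG-box genes HMGB1 and HMGB2 both stood lower with STING in the knockout experiment. HMGB1 stood at 76.2 and 122 FPKM with STING in knockout cells, against 129 and 195 FPKM with vector (log2 difference -0.71, SE 0.29). In wild-type cells it stood at 169 and 160 FPKM with STING, against 243 and 325 FPKM with vector (-0.76, SE 0.29). HMGB2 stood at 95.7 and 119 FPKM with STING in knockout cells, against 128 and 207 FPKM with vector (-0.61), and at 147 and 137 in wild-type cells with STING, against 207 and 246 with vector (-0.67). The HMGB groups did not overlap, although the knockout libraries spread widely: without single libraries the knockout difference ran from -1.05 to -0.37 for HMGB1 and from -0.95 to -0.26 for HMGB2. With median-of-ratios scaling the wild-type differences shrank to -0.38 for HMGB1 and -0.28 for HMGB2. With quantile normalization the knockout differences shrank to -0.44 for HMGB1 and -0.35 for HMGB2. HMGA1, the AT-hook protein, had the smallest differences of the 10. It stood at 412 and 450 FPKM with STING in knockout cells, against 564 and 528 FPKM with vector (-0.34), and at 358 and 330 in wild-type cells with STING, against 413 and 416 with vector (-0.27). The HMGA1 difference in wild-type cells was 0.12 with median-of-ratios scaling and 0.05 with quantile normalization, and in knockout cells it shrank to -0.15 and -0.08.

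Of the replacement histones, H3F3B stood at 76.4 and 99.6 FPKM with STING in knockout cells, against 142 and 180 FPKM with vector (log2 difference -0.87, SE 0.20). In wild-type cells it stood at 126 and 119 FPKM with STING, against 198 and 200 FPKM with vector (-0.69, SE 0.20). H3F3A, another gene for H3.3, stood higher than H3F3B and overlapped in both genotypes. It stood at 627 and 454 FPKM with STING in knockout cells, against 624 and 663 with vector. In wild-type cells it stood at 492 and 603 FPKM with STING, against 550 and 1070 with vector. In the first experiment STING lay wholly under vector for H3F3A (293 and 428 FPKM, against 448 and 564). H2AFZ was the only gene of the 10 whose knockout groups overlapped, with 641 and 1011 FPKM with STING, against 940 and 1498 FPKM with vector (-0.56, SE 0.29). In wild-type cells H2AFZ stood at 923 and 977 FPKM with STING, against 1203 and 1416 FPKM with vector (-0.46). PTMS stood at 112 and 105 FPKM with STING in knockout cells, against 215 and 124 FPKM with vector (-0.59), and at 94.9 and 83.0 in wild-type cells with STING, against 142 and 99.8 with vector (-0.42). With median-of-ratios scaling the wild-type differences shrank to -0.30 for H3F3B, -0.07 for H2AFZ and -0.04 for PTMS. With quantile normalization the knockout differences shrank to -0.59 for H3F3B, -0.28 for H2AFZ and -0.31 for PTMS. Without single libraries the knockout differences ran from -0.99 to -0.20 for PTMS, the smallest without knockout vector library 1, and from -0.89 to -0.22 for H2AFZ, the smallest without knockout vector library 2. The PTMS difference in wild-type cells ran from -0.68 to -0.17. In knockout cells library 2 was the higher one with STING and with vector for HMGB1, HMGB2, HMGN1, H2AFZ and H3F3B.

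**Figure D3:**
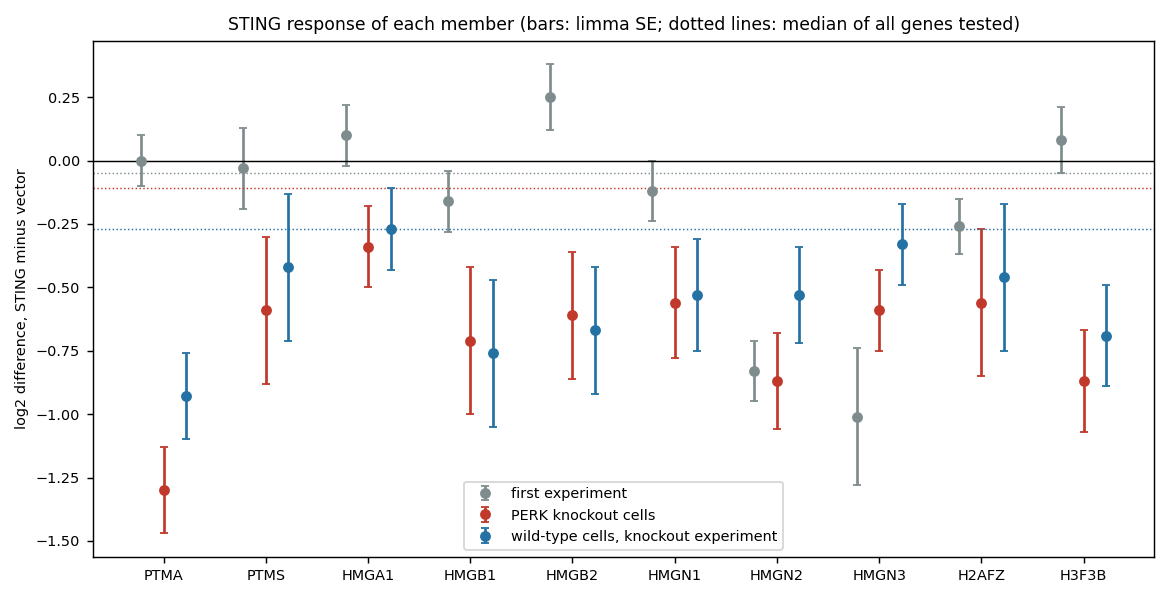
Log2 difference, STING minus vector (y axis), of each gene with limma SE bars, in the first experiment (grey), PERK knockout cells (red) and wild-type cells (blue); dotted lines mark the median of all genes tested in each. All 10 genes lie under 0 in both genotypes on the deposited scale, from -0.34 to -1.30 in knockout and from -0.27 to -0.93 in wild-type cells, although HMGA1 and HMGN3 turn to 0.12 and 0.06 in wild-type cells with median-of-ratios scaling.

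In knockout cells 0 of the 10 genes were called by limma, with 0.00816% of 12254 genes called. At an unadjusted p under 0.05, 7 of the 10 were lower, against 6.64% of all genes and 20.3% of the 883 genes averaging 100 FPKM or more. STING libraries lay wholly under vector libraries for 9 of the 10, against 21.9% of all genes and 45.1% of those with at least 100 FPKM. The difference was under 0 for 10 of 10, against 66.2% of all genes and 84.9% of those with at least 100 FPKM. The median over the 10 was -0.60, against -0.11 over all genes and -0.27 over genes with at least 100 FPKM. Without knockout vector library 1 the median over the 10 was -0.92, and with quantile normalization it was -0.34, against 0.00 over all genes.

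In wild-type cells 0 of the 10 genes were called by limma, with 0.00816% of 12254 genes called. At an unadjusted p under 0.05, 6 of the 10 were lower, against 12.4% of all genes and 17.8% of those with at least 100 FPKM. STING libraries lay wholly under vector libraries for 10 of the 10, against 52.3% of all genes and 57.3% of those with at least 100 FPKM. The difference was under 0 for 10 of 10, against 81.6% of all genes and 85.3% of those with at least 100 FPKM. The median over the 10 was -0.53, against -0.27 over all genes and -0.29 over genes with at least 100 FPKM. Median-of-ratios scaling moved the median of all genes to 0.06 and that of the 10 to -0.14, with 8 of 10 still under 0, and quantile normalization gave medians of -0.00 and -0.32. The 10 genes were named with earlier results known, so these counts are a description.

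The difference of the STING responses, knockout minus wild-type, was not called for any of the 10 genes, and limma called 0 of 12254 genes (0%). At an unadjusted p under 0.05 none of the 10 was lower or higher, against 0.832% of all genes lower and 3.04% higher, and 1.59% and 0.906% of genes with at least 100 FPKM. PTMA had the lowest value, -0.37 (SE 0.24, limma adjusted p = 0.966), with a 95% interval from -0.92 to 0.18. HMGN2 followed at -0.34 (interval -0.97 to 0.28), and HMGB1 and HMGB2 had 0.05 and 0.06. The value was under 0 for 8 of the 10, against 33.4% of all genes, with medians of -0.14 over the 10 and 0.13 over all genes. Among genes with at least 100 FPKM 52.2% were under 0, with a median of -0.02. The count depended on the processing: with median-of-ratios scaling 10 of 10 were under 0 (median -0.34, against -0.03 over all genes), and without knockout STING library 1 it was 5 of 10 (median 0.00, against 0.20 over all genes). TMEM173 itself stood at 10512 and 7338 FPKM in knockout cells with STING, against 41812 and 40660 FPKM in wild-type cells, and its part in these differences was not tested.

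Between genotypes with vector, limma called 0 of the 10 genes, against 0.049% of all genes. PTMA stood at 4339 and 3751 FPKM in knockout cells, against 4389 and 4443 FPKM in wild-type cells (log2 difference -0.13, SE 0.17). HMGB1 stood at 129 and 195 FPKM in knockout cells, against 243 and 325 FPKM in wild-type cells (-0.82, SE 0.29, limma adjusted p = 0.327). HMGA1 stood at 564 and 528 FPKM in knockout cells, against 413 and 416 FPKM in wild-type cells (0.40, SE 0.16, limma adjusted p = 0.363). Knockout libraries lay under wild-type libraries for 5 genes and over them for 2, against 25.8% and 12.5% of all genes. At an unadjusted p under 0.05, 1 gene was lower and 1 higher, against 7.99% and 4.38%. The median over the 10 was -0.13, against -0.09 over all genes. With median-of-ratios scaling the median over the 10 turned to 0.04, against 0.05 over all genes, with 4 of the 10 under 0 in place of 6. PTMA and H2AFZ turned to 0.05 and 0.04.

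Between genotypes with STING, limma called 0 of the 10 genes, against 1.75% of all genes. HMGN2 stood at 759 and 731 FPKM in knockout cells, against 1205 and 1274 FPKM in wild-type cells (log2 difference -0.73, SE 0.19, limma adjusted p = 0.109). PTMA stood at 1696 and 1589 FPKM in knockout cells, against 2403 and 2249 FPKM in wild-type cells (-0.50, SE 0.17, limma adjusted p = 0.183). Neither pair of groups overlapped, and with a replicate block both passed (limma adjusted p = 0.0208 for HMGN2 and 0.0279 for PTMA). HMGB1 (-0.77) and H3F3B (-0.49) were also lower at an unadjusted p under 0.05, which 4 of the 10 genes reached against 7.1% of all genes and 15.1% of those with at least 100 FPKM. Knockout libraries lay under wild-type libraries for 6 genes and over them for 2, HMGA1 (0.32) and PTMS (0.28), against 20.6% and 24.8% of all genes and 31.9% and 25.6% of those with at least 100 FPKM. The median over the 10 was -0.32, against 0.02 over all genes and -0.05 over genes with at least 100 FPKM. These comparisons share libraries with those above.

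**Figure D4:**
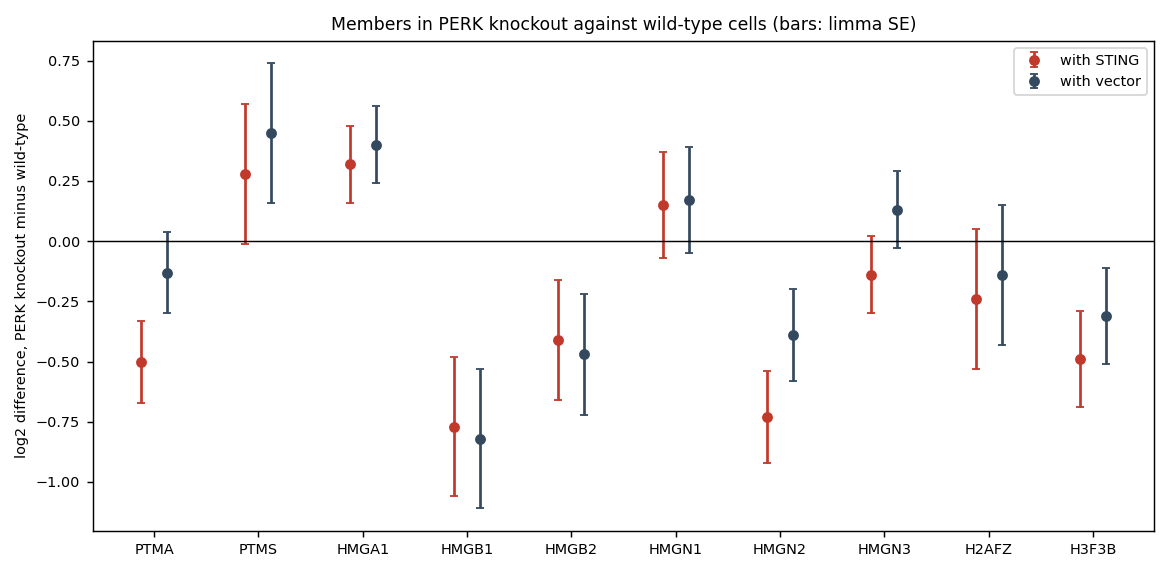
Log2 difference, PERK knockout minus wild-type (y axis), of each gene with limma SE bars, with STING (red) and with vector (dark). HMGB1 lies near -0.8 under both plasmids (-0.77 and -0.82). HMGA1, PTMS and HMGN1 lie over 0 under both, and HMGN3 lies over 0 with vector only (0.13). PTMA and HMGN2 lie lower with STING (-0.50 and -0.73) than with vector (-0.13 and -0.39), a gap that did not pass the test. With median-of-ratios scaling PTMA with vector turns to 0.05.

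Ratios of FPKM between related genes within a library do not depend on a linear scaling of the library. The ratio of HMGN2 to HMGN1 was 5.45 and 6.05 with STING in the first experiment, against 9.15 and 9.71 with vector. In knockout cells it was 2.34 and 1.78 with STING, against 2.78 and 2.31 with vector, and in wild-type cells 3.64 and 3.87, against 3.51 and 3.99. STING lay wholly under vector in the first experiment and overlapped it in both genotypes, and the difference between experiments was not tested. The ratio of HMGB1 to HMGB2 was 1.56 and 1.44 with STING in the first experiment, against 1.97 and 2.01 with vector. In the knockout experiment it was 0.796 and 1.02 with STING in knockout cells, against 1.01 and 0.939 with vector, and 1.15 and 1.17 in wild-type cells with STING, against 1.17 and 1.32 with vector. The ratio of H2AFZ to its paralog H2AFV was 18.4 and 17.2 with STING in the first experiment, against 27.2 and 31.2 with vector, and 6.94 and 10.6 in knockout cells with STING, against 7.22 and 11.4 with vector. In wild-type cells it was 11.2 and 11.1 with STING, against 10.5 and 12.4 with vector. For this ratio STING lay wholly under vector in the first experiment and overlapped it in both genotypes. In the first experiment, however, H2AFV stood higher with STING, at 74.6 and 71.9 FPKM, against 54.5 and 53.0 with vector. That rise (log2 difference 0.44, limma adjusted p = 0.0697) and the H2AFZ difference of -0.26 both enter the ratio. Neither passed the test. The ratio of PTMA to PTMS was 15.2 and 15.2 with STING in knockout cells, against 20.2 and 30.2 with vector, and 25.3 and 27.1 in wild-type cells with STING, against 30.8 and 44.5 with vector. In the first experiment it was 28.3 and 30.4 with STING, against 27.8 and 29.7 with vector. STING lay wholly under vector in both genotypes and overlapped it in the first experiment.

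Other genes came from textbook lists of this chromatin machinery, its relatives and its partners. In the first experiment 5 of their 82 tested genes were called (6.1%), a smaller share than the 11.8% called over all genes. SSRP1, the HMG-box subunit of the histone chaperone FACT, rose to 15.5 and 16.6 FPKM with STING, against 5.58 and 7.12 FPKM with vector (log2 difference 1.22, limma adjusted p = 0.00955). It was the only call, higher, among 14 tested HMG relatives, with 0 lower and a list median of 0.09. NASP, a chaperone of histones H1 and H3-H4, rose to 16.3 and 13.5 FPKM with STING, against 3.87 and 5.79 FPKM with vector (1.46, adjusted p = 0.00856). NPM1, a nucleolar histone chaperone, rose to 439 and 420 FPKM with STING, against 308 and 311 FPKM with vector (0.47, adjusted p = 0.0222). These were the 2 calls, both higher, among 27 histone chaperones, whose median was 0.19. At an unadjusted limma p under 0.05, 0 of the 27 were lower and 8 were higher, against 18.9% and 8.82% of all genes.

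RUVBL1, an ATPase of the complexes that place H2A.Z, rose to 66.8 and 67.1 FPKM with STING, against 35.5 and 41.9 FPKM with vector (log2 difference 0.78, limma adjusted p = 0.0151), as the 1 call among 17 genes of H2A.Z exchange (median 0.06). H2AFX, the DNA damage histone H2A.X, fell to 166 and 176 FPKM with STING, against 218 and 251 FPKM with vector (-0.45, limma adjusted p = 0.0467), as the 1 call among 9 replacement histones (median -0.11). All 5 calls were lost without STING library 1 (limma adjusted p from 0.167 to 0.30), without STING library 2 (0.144 to 0.24) and without the intensity trend and robust estimation (0.0905 to 0.189). The H2AFX and NPM1 calls were also lost without the filter on low values (0.107 and 0.0561) and without vector library 2 (0.148 and 0.0629), that of NPM1 without vector library 1 (0.0612), and that of H2AFX with median-of-ratios scaling (0.0729) and quantile normalization (0.589). The last list holds chromatin compaction partners and also genes that are not chromatin proteins, such as KEAP1. None of its 15 tested genes was called, and its median was 0.34. At an unadjusted limma p under 0.05, 1 was lower and 4 were higher, against 18.9% and 8.82% of all genes. At that level 2 of 9 replacement histones were lower and 4 were higher. Of 17 genes of H2A.Z exchange 4 were lower and 2 higher, and of 14 HMG relatives 0 were lower and 1 higher. In the other comparisons limma called 0 genes of these lists. With STING in knockout cells 22 of 30 histone chaperones were under 0 (median -0.20), 1 of them at an unadjusted p under 0.05. Of all genes, 66.2% were under 0 there and 6.64% were lower at that level. In wild-type cells 30 of 30 were under 0 (median -0.43), 7 of them at that level, against 81.6% and 12.4% of all genes. The medians of all genes were -0.11 in knockout and -0.27 in wild-type cells, and -0.05 in the first experiment.

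Likeness to PTMA was measured as Pearson r of log2(FPKM + 1) over the 12 libraries, centred within each table, for 4839 genes. The genes most like it were CBX3 (r = 0.964), a heterochromatin protein that reads methylated histone H3, RBM8A (0.943), a core protein of the exon junction complex, FAM217B (0.940), POLR2H (0.926), a subunit shared by the nuclear RNA polymerases, and VPS72 (0.922), a subunit that binds H2A.Z. CBX3 stood at 48.8 and 54.0 FPKM with STING in knockout cells, against 94.1 and 87.3 FPKM with vector, and at 75.3 and 67.7 in wild-type cells with STING, against 102 and 100 with vector. VPS72 stood at 127 and 115 FPKM with STING in knockout cells, against 188 and 171 FPKM with vector. Among the 10 genes themselves the 45 pairs had a median r of 0.549, from -0.102 to 0.932. The libraries share their groups and scaling, so these values describe likeness over 6 groups at most. PTMA ran only from 672 to 707 FPKM in the first experiment, against 1590 to 4440 in the knockout experiment. The values of r with PTMA therefore rest mainly on the knockout experiment.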

How the data were processed

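RNA of polysome fractions was measured in 12 libraries. Smart-seq2 cDNA of polyadenylated RNA was sequenced, per the labels' protocols. The authors deposited FPKM values made with TopHat2 2.1.1 and Cufflinks 2.2.1 on hg19, per the submitters' processing notes. The deposited table of the first experiment names FPKM. That of the knockout experiment names no unit, has a lowest value of 1, and was read as FPKM with lower values set to 1. Between 38.7% and 40.2% of symbols stood at 0 in the first table, and between 13.1% and 18.1% at 1 in the second. Neither table gives counts, so depth is unknown and no counting interval is given. Gene annotation is not given in the sources used here.

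Values were taken as log2(FPKM + 1), genes averaging under 1 were dropped (leaving 9464 and 12254), and each table was fitted by itself with limma 3.58.1 (R 4.3.3), using an intensity trend and robust estimation, two-sided, with Benjamini-Hochberg adjustment over all genes at 0.05. In the knockout experiment the spread was estimated over all 8 libraries jointly. A difference on this scale understates the change of low genes. The fit was tested on simulated data. All 10 genes are named. From each list at most 3 genes with the smallest p per comparison, and the 5 genes most like PTMA, could be named. H3F3A was named besides, as the paralog of H3F3B. The genes, lists and tests were chosen with earlier results of these data known. The alternatives were other pseudocounts, filters, scalings and estimators, a replicate block, and leaving out each library. Promoter windows came from RefSeq (GRCh38.p14), and coding lengths and pseudogene names from a GRCh38 annotation, with no coordinates of the hg19 tables used.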

Additional observations from a re-analysis of the deposited data

Results flagged for a closer look

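HMGA1 and HMGB2 drew attention because both STING libraries stood above both vector libraries in the first experiment and under both vector libraries in wild-type cells of the knockout experiment. For HMGA1 the log2 difference was 0.10 in the first experiment and -0.27 in wild-type cells. For HMGB2 it was 0.25 and -0.67. None of these passed the test on its own, the tables were normalized separately, and the difference between the experiments was not tested. The HMGA1 difference in wild-type cells was above 0 with median-of-ratios scaling (0.12) and quantile normalization (0.05).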

How the results depend on the processing

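The 10 genes were refitted under each alternative, for 920 values in all. Of these 841 kept a call or stayed within the SE of the reported difference, and 69 moved by more than that SE. Another 5 newly passed, 4 lost the call and 1 changed sign and passed. The last was PTMA in the first experiment, with no clear direction as reported (-0.0). In the first experiment the count of the 10 genes called was 1 as reported, 2 with a replicate block and 0 without trend and robust estimation. It was 2 with quantile normalization (PTMA, which moved from -0.0 to 0.42, and HMGA1 at 0.43). The median over the 10 was -0.08 as reported, 0.19 with quantile normalization, and -0.11 to -0.04 without single libraries. All genes called numbered 1117 as reported, 777 with quantile normalization, 580 without a filter on low values, 17 without trend and robust estimation, 1587 with the block, and 38 to 818 without single libraries.

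In knockout cells the median over the 10 was -0.60 as reported, -0.34 with quantile normalization, and -0.92 to -0.46 without single libraries. In wild-type cells it was -0.53, -0.14 with median-of-ratios scaling, -0.32 with quantile normalization, and -0.66 to -0.49 without single libraries. The medians without single libraries ran from -0.28 to 0.00 for the difference of the responses, from -0.28 to -0.03 between genotypes with vector and from -0.51 to -0.23 with STING. The count called stayed 0 in these 5 comparisons in each fit without a library.

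Replicate numbers are shared between groups, but the labels do not say that they pair libraries, and with 2 pairs this could not be settled: deviations from group means correlated at 0.074 in the first experiment and at 0.042 to 0.528 in the knockout experiment. With a replicate block 1 gene of the 10 was called with STING in knockout cells (PTMA, limma adjusted p = 0.00852) and 2 between genotypes with STING (PTMA, 0.0279, and HMGN2, 0.0208), where 851 genes passed in place of 215. In the first experiment the block added HMGN3 (0.00162). Scaling to spike-ins was not run, since the table used lists no spike-in entries. Where a group was left with 1 library, it was assumed to vary like the others. With 2 libraries per group and no counts, small differences were not detectable.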
